A study of Rattus norvegicus with 35 samples.

Results

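Rat mammary tumours were set against each other by the balance of their basal and luminal keratins: the 8 tumours with the highest basal share, called basal-keratin tumours here, were compared with the 8 of lowest share, called luminal-keratin tumours. These 16 tumours were taken from 23 ranked tumours, out of 24 tumours and 35 arrays in the series. The keratin score of a tumour was the mean log2 signal of Krt5 and Krt14 minus the mean log2 signal of Krt8, Krt18 and Krt19. The 7 tumours between the groups, a tumour titled X22L and the 11 normal mammary glands entered no test and are given only for scale. The groups were therefore defined by measured signals and are not groups of the study's labels. The keratins that chose them are described without a test.

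All tumours were frozen tissue and had been induced with NMU (N-methyl-N-nitrosourea), a DNA-alkylating compound that gives rats mammary cancer, and each was read on 1 oligonucleotide array. The labels used here state no strain, age, animal, batch or pairing, nor the histology of any tumour, so basal-keratin and luminal-keratin tumours share every stated property. Nothing in the labels says that the tumours came from separate animals, so the p-values speak only of the variation among these arrays, some of it possibly technical. X25L and X25R share a title number, as do X29.1 and X29.2, and the labels do not say what the number means.

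Keratins are the intermediate filament proteins of epithelial cells and assemble as pairs of 1 type I and 1 type II chain. In the mammary gland, Krt5 and its partner Krt14 mark the basal layer, which holds contractile myoepithelial cells against the basement membrane. Krt8 with its partners Krt18 and Krt19 marks the luminal layer, which faces the duct and produces milk. Human breast tumours are also described by whether basal or luminal keratins prevail.

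The keratin scores had no gap at either border between the groups, and X2 stood apart at the low end. The basal-keratin scores were 0.22 in X18, 0.11 in X25L, -0.17 in X10, -0.19 in X17, -0.19 in X14, -0.29 in X11, -0.42 in X26 and -0.47 in X29.1. The luminal-keratin scores were -1.06 in X9, -1.15 in X13, -1.23 in X6, -1.25 in X28, -1.34 in X32, -1.44 in X21, -1.68 in X4 and -2.32 in X2. At the borders, the nearest tumours left out were X29.2 at -0.51 and X27 at -1.04, so X29.1 and X9 lay just inside. The mean score was -0.17 ± 0.24 in basal-keratin tumours and -1.43 ± 0.41 in luminal-keratin tumours (SD, n = 8 each).

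The names of the groups are relative. Every tumour of both groups had signals of at least 369 for each of the 5 keratins, against the floor of 41.6 to which lower signals were raised, so no tumour lacked either set. Normal glands scored between -0.29 and 0.56. Of the basal-keratin tumours, 6 of 8 lay within that range and 2 lay below it, while all 8 luminal-keratin tumours lay below it. The basal-keratin tumours were thus the tumours whose keratin balance was nearest to that of whole normal gland. X22L would have ranked first with a score of 1.08, but on signals of at most 141 for any of the 5 keratins.

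**Figure D1:**
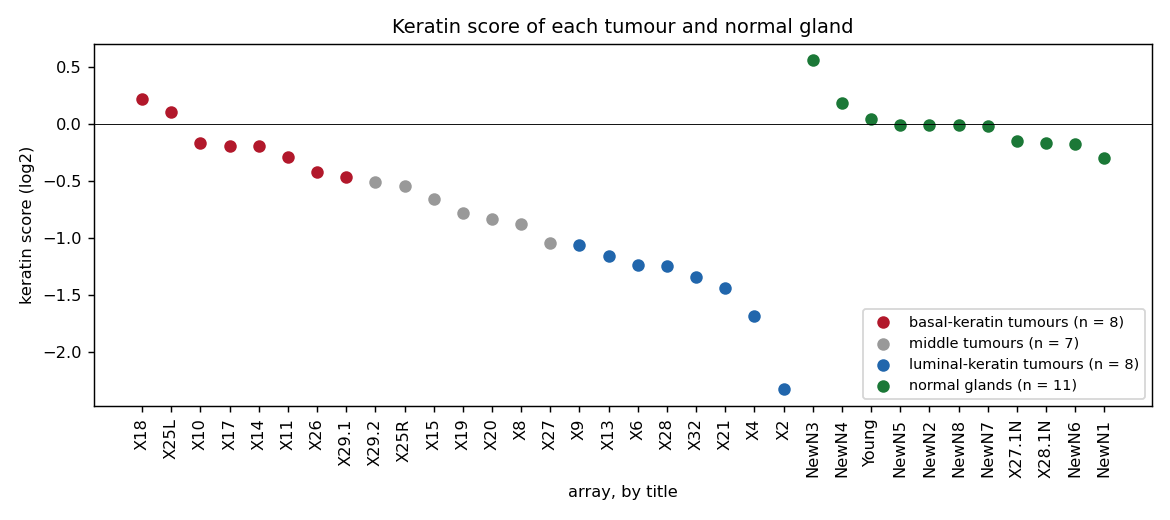
Keratin score (log2, vertical axis) of 8 basal-keratin, 7 middle and 8 luminal-keratin tumours and of 11 normal glands, one point per array, named by title. The tumour scores lie between 0.22 in X18 and -2.32 in X2, which stands apart from the next tumour at -1.68, and all luminal-keratin tumours lie below the lowest normal gland at -0.29.

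Krt14 separated the groups most among the keratins of the score. Its signal ran from 724 to 1441 with a median of 1065 in basal-keratin tumours, and from 369 to 956 with a median of 477 in luminal-keratin tumours, a log2 difference of 0.99. Krt5 had medians of 2971 in basal-keratin and 2106 in luminal-keratin tumours, a log2 difference of 0.64. On the luminal side the log2 differences were smaller, at -0.47 for Krt8, -0.42 for Krt18 and -0.43 for Krt19. Krt8 had medians of 1997 in basal-keratin and 2520 in luminal-keratin tumours. The ranges of the groups overlapped for each of the 5 keratins, so the split rests on their combination.

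Across all other genes, no probe set passed the test. By limma, 0 (0%) of the 15861 probe sets passed as higher and 0 (0%) as lower in basal-keratin tumours at a Benjamini-Hochberg adjusted p under 0.05, and every adjusted p was 1. At an unadjusted p under 0.05 there were 456 probe sets higher (2.87%) and 188 lower (1.19%), in all 644 or 4.06%. Counted by gene, 322 of 10406 genes were higher (3.09%) and 119 lower (1.14%) at that unadjusted level, together 441 or 4.24%, and 26 genes (0.25%) differed by at least 2-fold. The median log2 difference over all genes was 0.01, with 5404 of 10406 genes (51.9%) above 0 and 4811 below. Members of the gene lists named below can vary together between tumours, so counts of them are not counts of separate observations. In the gene values below, p is the unadjusted limma p, and the adjusted p is 1 for each of them.

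**Figure D2:**
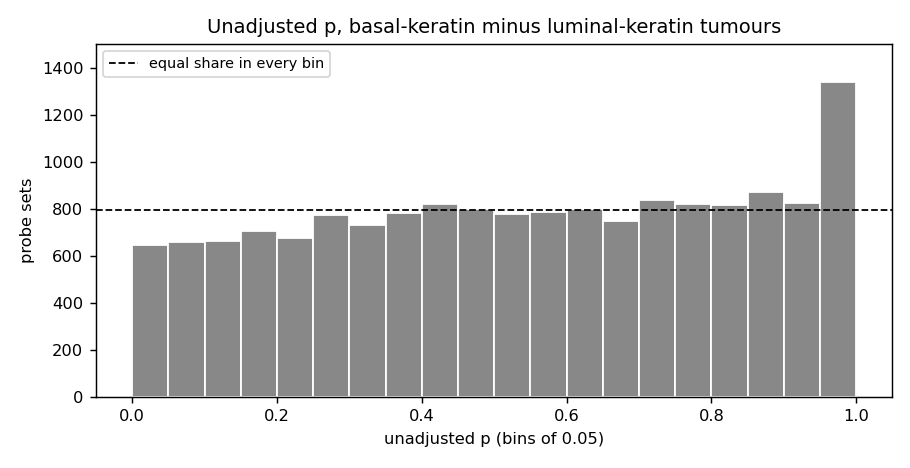
Number of probe sets (vertical axis) by unadjusted limma p (horizontal axis, bins of 0.05) for basal-keratin minus luminal-keratin tumours; the dashed line marks an equal share in every bin. The lowest bin holds 644 of 15861 probe sets, fewer than the equal share.

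No measure of array quality differed between the groups by the test. The median signal was 169 ± 1.52 in basal-keratin and 167 ± 4.45 in luminal-keratin tumours (SD, n = 8 each, exact two-sided permutation p = 0.246, adjusted over 5 measures p = 0.814). For Gapdh, the control probe sets at the 3' end over those at the 5' end, a ratio that grows with RNA breakdown, gave 1.02 ± 0.0989 in basal-keratin and 1.03 ± 0.0459 in luminal-keratin tumours (exact permutation p = 0.816, adjusted p = 0.816). Over all probe sets, a basal-keratin and a luminal-keratin tumour correlated with a median r of 0.941, against 0.943 within basal-keratin and 0.934 within luminal-keratin tumours. A tumour thus resembled tumours of the other group about as closely as those of its own.

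Krt15, a type I keratin of basal and progenitor cells that was not part of the score, had the largest log2 difference of any gene. Its signal was 880 to 2173 with a median of 1779 in basal-keratin tumours, and 134 to 2064 with a median of 650 in luminal-keratin tumours. All 8 basal-keratin tumours lay above the luminal-keratin median, and the ranges overlapped because X25L was low among basal-keratin tumours and 1 luminal-keratin tumour reached 2064. The log2 difference was 1.44 (SE 0.40, 95% interval 0.59 to 2.29, p = 0.00227). The 7 middle tumours had a median of 1095, between the groups, and normal glands had a median of 644. Of 11 keratin genes measured besides those of the score, the 10 others differed by -0.33 to 0.05 on the log2 scale, all with a p above 0.05.

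Krt7, a simple-epithelial keratin of luminal cells, was among them. Its signal was 212 to 705 in basal-keratin tumours and 248 to 1907 in luminal-keratin tumours, with a log2 difference of -0.33 (95% interval -1.06 to 0.39, p = 0.342). The wide interval holds both no difference and a 2-fold lower level. Trp63, the master regulator of basal epithelium, and Krt17 were not analysed here.

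Genes of the basal epithelium list mostly had positive differences, of which Krt15 was by far the largest. Of 17 measured members of 25 listed, 0 were called. The difference was above 0 for 15 members and below 0 for 2, with a median of 0.24 on the log2 scale. Over all genes the median was 0.01, and 51.9% were above 0. At a p under 0.05, 4 of the 17 members (23.5%) were higher, against 3.09% of all genes. These 4, named for that after their values were seen, were Krt15, Cd44, Cav1 and Egfr. The list's median was 0.13 without X14, 0.39 without X32, and 0.04 with 9 of 17 members above 0 when X22L was ranked.

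Cd44, the hyaluronan receptor of basal and stem-like epithelial cells and also of many stromal and immune cells, had a signal of 159 to 239 in basal-keratin tumours and 57.3 to 334 in luminal-keratin tumours. Its log2 difference was 0.76 (SE 0.26, p = 0.00857), and all 8 basal-keratin tumours lay above the luminal-keratin median of 118. Cav1, the coat protein of caveolae in myoepithelium, endothelium and fat, had medians of 595 in basal-keratin and 305 in luminal-keratin tumours (log2 difference 0.83, p = 0.0317). Egfr, the epidermal growth factor receptor, had medians of 362 in basal-keratin and 295 in luminal-keratin tumours (log2 difference 0.41, p = 0.044). Cdh3, which encodes P-cadherin, the adhesion protein of the basal layer, had a log2 difference of 0.14 (95% interval -0.14 to 0.43, p = 0.298). For Cdh3, 4 of 8 basal-keratin tumours lay on each side of the luminal-keratin median.

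The basal layer rests on a basement membrane of laminins, type IV collagen and nidogen, to which it is tied by integrins. In the list of hemidesmosome, integrin and laminin genes the difference was above 0 for 14 of 17 measured members, with a median of 0.26 and 0 called, and the median was 0.40 without X18. At a p under 0.05, 4 of the 17 members (23.5%) were higher, against 3.09% of all genes. These 4 were matrix genes and were chosen for naming after their values were seen. Nid1, the nidogen that links laminin to type IV collagen, had a signal of 275 to 1088 with a median of 533 in basal-keratin tumours, and 156 to 407 with a median of 311 in luminal-keratin tumours. Its log2 difference was 0.89 (SE 0.25, p = 0.0026). Fewer cells of a type and less RNA per cell cannot be told apart in such bulk tissue.

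The other 3 matrix genes were of like size. Lamb1, a laminin beta chain, differed by 0.65 (p = 0.00308), Lamc1, the laminin gamma chain shared by most laminins, by 0.73 (p = 0.0265), and Col4a1, a type IV collagen chain, by 0.73 on the log2 scale (p = 0.0132). Endothelium and fibroblasts make these chains as well as myoepithelium. Itga6, the laminin receptor subunit of the basal cell surface, had a log2 difference of -0.12 (95% interval -0.62 to 0.37, p = 0.606). Its signal was 185 to 459 in basal-keratin and 182 to 552 in luminal-keratin tumours.

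Contractile genes of myoepithelium had values in the same direction and of small size. Of 18 measured members, 16 were above 0 and 2 below, with a median of 0.22 and 0 called. Acta2, the smooth muscle actin that marks myoepithelium, vessel walls and activated fibroblasts, had a signal of 818 to 3484 with a median of 1420 in basal-keratin tumours, and 672 to 1945 with a median of 1239 in luminal-keratin tumours. Its log2 difference was 0.34 (95% interval -0.27 to 0.95, p = 0.262). The ranges overlapped, and 3 of 8 basal-keratin tumours lay below the luminal-keratin median.

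Tpm2, a tropomyosin of contractile cells, had the largest difference of the list, 0.76 (SE 0.39, p = 0.0666). Mylk, the kinase that activates smooth muscle myosin, differed by 0.68 (p = 0.0376), and Myh11, the smooth muscle myosin itself, by 0.48 (95% interval -0.91 to 1.87, p = 0.477). Without X17 the list's median log2 difference was 0.12.

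**Figure D3:**
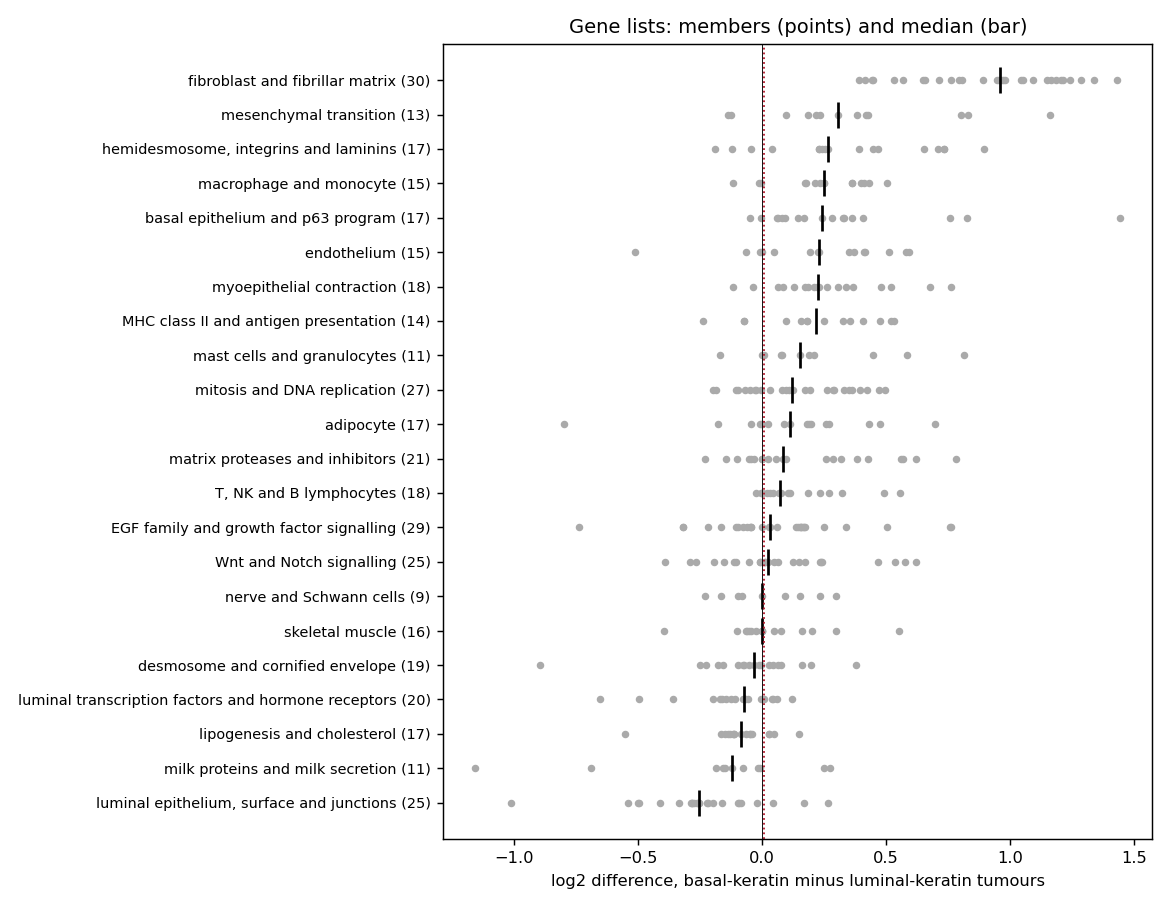
Log2 difference of each measured gene, basal-keratin minus luminal-keratin tumours (horizontal axis), by gene list with the number measured in brackets; points are genes, black bars list medians, and the dotted line is the median of all genes. The fibroblast list lies farthest to the right with a median of 0.96, and the luminal surface list farthest to the left at -0.26.

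Genes of the luminal cell surface had the opposite sign. Of 25 measured members of that list, 22 were below 0 and 3 above, with a median log2 difference of -0.26 and 0 called. The mean log2 signal of the list ran from 8.70 to 9.38 in basal-keratin and from 9.05 to 9.62 in luminal-keratin tumours, and 7 of 8 basal-keratin tumours lay below the luminal-keratin median. The list's median was -0.16 without X32, -0.13 for 11 tumours a group and -0.63 when X22L was ranked. At a p under 0.05, 4 of the 25 members (16%) were lower, against 1.14% of all genes. These 4, named after their values were seen, were the tight junction genes Cldn3 and Cldn4, Ceacam1 and St14. The count at a p under 0.05, in either direction, moved with the processing. It was 9 with quantile normalization, 3 with the floor at the 5th percentile and 4 with that at the 20th. Among brighter probe sets it was 3 of 22.

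Cldn4, a claudin that seals tight junctions, had a signal of 326 to 578 with a median of 471 in basal-keratin tumours, and 474 to 853 with a median of 586 in luminal-keratin tumours. All 8 basal-keratin tumours lay below the luminal-keratin median, and the log2 difference was -0.41 (SE 0.14, p = 0.00973). Cldn3, its relative in the same junctions, had medians of 1409 in basal-keratin and 1794 in luminal-keratin tumours (log2 difference -0.50, p = 0.0097), again with all 8 basal-keratin tumours below the luminal-keratin median.

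Ceacam1, an adhesion protein of the apical surface, differed by -0.54 (p = 0.0114), and St14, the membrane protease matriptase, by -0.20 (p = 0.0432). Tspan8, a tetraspanin of glandular epithelia, had the largest difference of the list, -1.01 (SE 0.51, 95% interval -2.09 to 0.06, p = 0.0628). Its signal varied widely within groups, at 27 to 313 in basal-keratin and 64.7 to 1505 in luminal-keratin tumours. Cdh1, which encodes E-cadherin, had medians of 1332 in basal-keratin and 1597 in luminal-keratin tumours, a log2 difference of -0.26 (p = 0.0763).

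Normal glands, which hold much tissue other than epithelium, had medians of 346 for Cldn4 and 1031 for Cldn3, under those of both tumour groups. Both junction genes thus had higher medians in basal-keratin tumours than in whole normal gland.

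Hormone receptors had small differences of both signs. Esr1, the oestrogen receptor of luminal cells, had medians of 65.7 in basal-keratin and 67.2 in luminal-keratin tumours, a log2 difference of -0.07 (95% interval -0.63 to 0.48, p = 0.79). Its signals lay near the floor, and 2 basal-keratin tumours were at or under it. Pgr, the progesterone receptor, had a median of 164 in both groups and a difference of -0.16 (95% interval -0.83 to 0.51, p = 0.615). Prlr, the prolactin receptor, had medians of 2611 in basal-keratin and 2355 in luminal-keratin tumours and a difference of 0.06 (95% interval -0.43 to 0.55, p = 0.806). Gata3, the transcription factor that maintains luminal identity, differed by -0.06 (95% interval -0.39 to 0.28, p = 0.72). Each of the 4 intervals holds 0, and the widest, that of Pgr, also holds a difference of -0.83.

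Of 20 measured luminal transcription factors and hormone receptors, 15 were below 0 and 5 above, with a median of -0.07 and 0 called, and for 11 tumours a group that median was 0.03. Ehf, an ETS-family factor of glandular epithelium, was the member with the largest difference. Its signal was at most 79.4 in basal-keratin tumours, with a median of 44.6, and 45.9 to 123 with a median of 76.6 in luminal-keratin tumours. The log2 difference was -0.65 (SE 0.20, p = 0.00399), although the basal-keratin values lie near the floor. The middle tumours had a median of 43.4 for Ehf, below the basal-keratin median, so no graded order was seen.

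Milk genes differed more between single tumours than between the groups. Csn1s1, a casein, had a signal of 398 to 6559 in basal-keratin and 817 to 10305 in luminal-keratin tumours, a log2 difference of -0.69 (95% interval -2.02 to 0.64, p = 0.291). Csn2, the beta-casein, reached 1907 in X10 among basal-keratin tumours and 2301 in a luminal-keratin tumour, with medians of 35.3 in basal-keratin and 69.5 in luminal-keratin tumours. Its log2 difference of -1.16 was the lowest of any gene, with a 95% interval of -3.13 to 0.82 (p = 0.235). For Csn2, 5 basal-keratin and 2 luminal-keratin tumours were at or under the floor. Wap, the whey acidic protein, had a median signal of 1, the lowest deposited value, in both groups. Of 11 measured milk genes, 9 were below 0 and 2 above, with a median of -0.12 and 0 called. With 11 tumours a group, 7 of the 11 were above 0 and the median was 0.20.

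Proliferation genes had small differences. Of 27 measured genes of mitosis and DNA replication, 18 were above 0 and 9 below, with a median of 0.12 and 0 called. The median was 0.04 without X26 or without X4, 0.08 without X10, 0.22 without X14 and -0.01 for 11 tumours a group. Mki67, the proliferation marker, had a signal of 96.0 to 413 with a median of 158 in basal-keratin tumours, and 69.0 to 239 with a median of 151 in luminal-keratin tumours. Its log2 difference was 0.33 (95% interval -0.27 to 0.94, p = 0.264). Ube2c, which drives mitotic exit, differed by 0.49 (p = 0.183), and Ccnb1, the mitotic cyclin, by 0.36 (p = 0.0431).

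**Figure D4:**
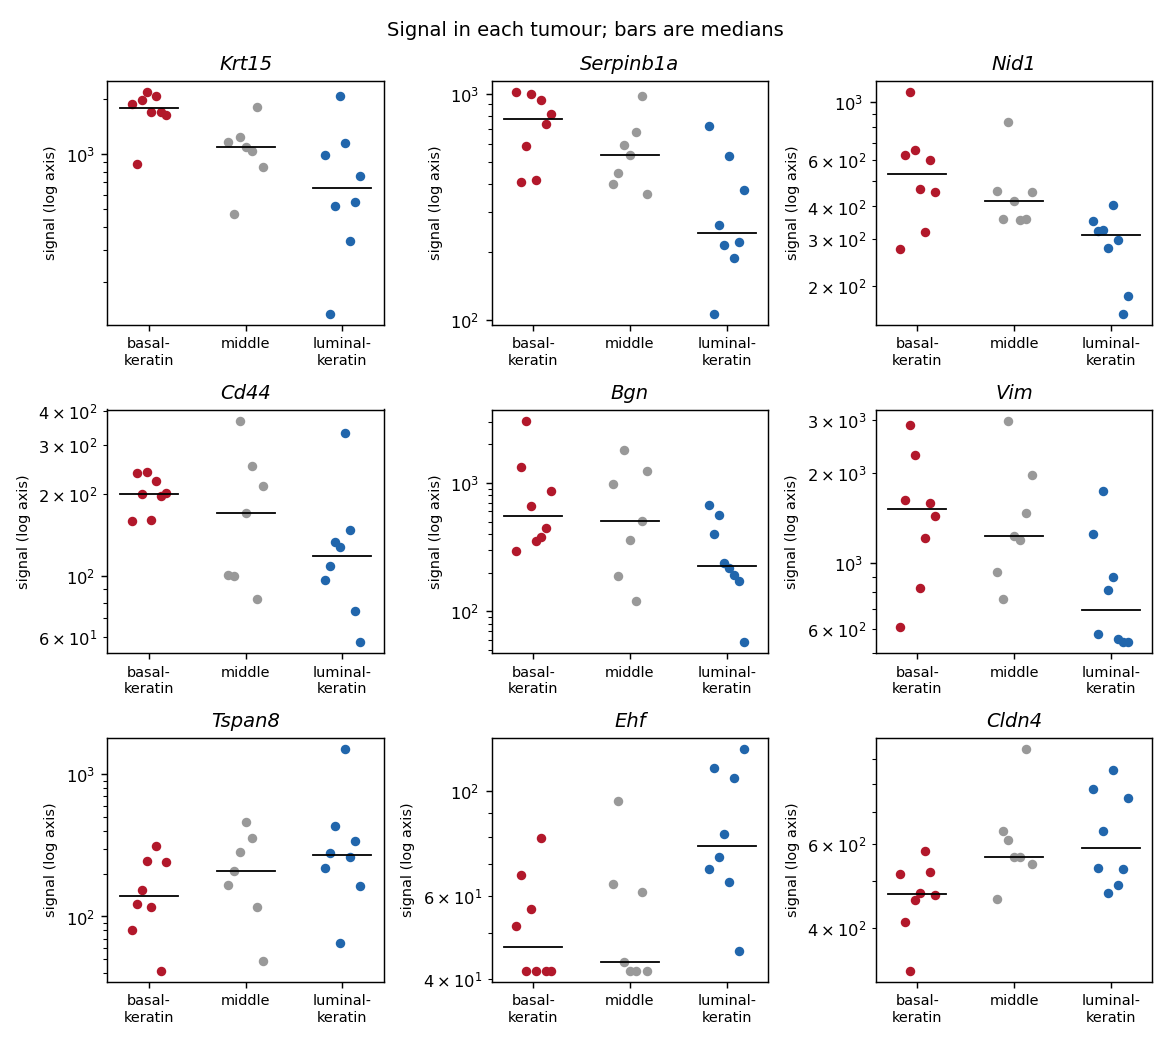
Signal (log axis, values under the floor drawn at it) of 9 named genes in basal-keratin (n = 8), middle (n = 7) and luminal-keratin (n = 8) tumours; each point is a tumour and bars are medians. Krt15, Serpinb1a and Bgn have basal-keratin points above the luminal-keratin median in all 8 tumours, Cldn4 has all 8 below it, and the ranges overlap in every panel.

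Genes of fibroblasts and fibrillar matrix had the largest median difference of any list. Of 30 measured members, all 30 were above 0, with log2 differences of 0.39 to 1.43 and a median of 0.96, and 12 of 30 (40%) differed by at least 2-fold, while 0 were called. Bgn, the matrix proteoglycan biglycan, had a signal of 293 to 3052 with a median of 555 in basal-keratin tumours, and 57.5 to 678 with a median of 227 in luminal-keratin tumours. Its log2 difference was 1.43 (SE 0.51, 95% interval 0.36 to 2.50, p = 0.0118). Col1a1, the main chain of fibrillar type I collagen, had a signal of 236 to 8788 in basal-keratin and 69.2 to 2173 in luminal-keratin tumours. The spread within each group was more than 10-fold, and the log2 difference of 1.34 had a 95% interval of -0.44 to 3.11 (p = 0.131).

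Sparc, a collagen-binding matrix protein, had medians of 1749 in basal-keratin and 1031 in luminal-keratin tumours (log2 difference 1.18, p = 0.00957). Stromal genes vary together between samples, so the 30 members are not 30 separate observations.

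The fibroblast level was uneven across the basal-keratin tumours. The mean log2 signal of the list was 10.90 in X10, 10.16 in X25L, 9.63 in X17, 8.68 in X29.1, 8.35 in X11, 7.97 in X26, 7.89 in X14 and 7.02 in X18 among basal-keratin tumours. Among luminal-keratin tumours it was 9.13 in X6, 8.69 in X9, 8.62 in X13, 8.03 in X28, 7.64 in X21, 7.40 in X32, 7.29 in X4 and 6.53 in X2. Only X10, X25L and X17 lay above the highest luminal-keratin tumour, and X18, the tumour with the highest keratin score, lay below 7 of the 8 luminal-keratin tumours and had the lowest level of its own group.

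Without X10 the list's median log2 difference was 0.61, and without X18 it was 1.29. Middle tumours ran from 6.84 to 10.01 and normal glands from 9.51 to 10.99, so the level of the list varied widely within each group.

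**Figure D5:**
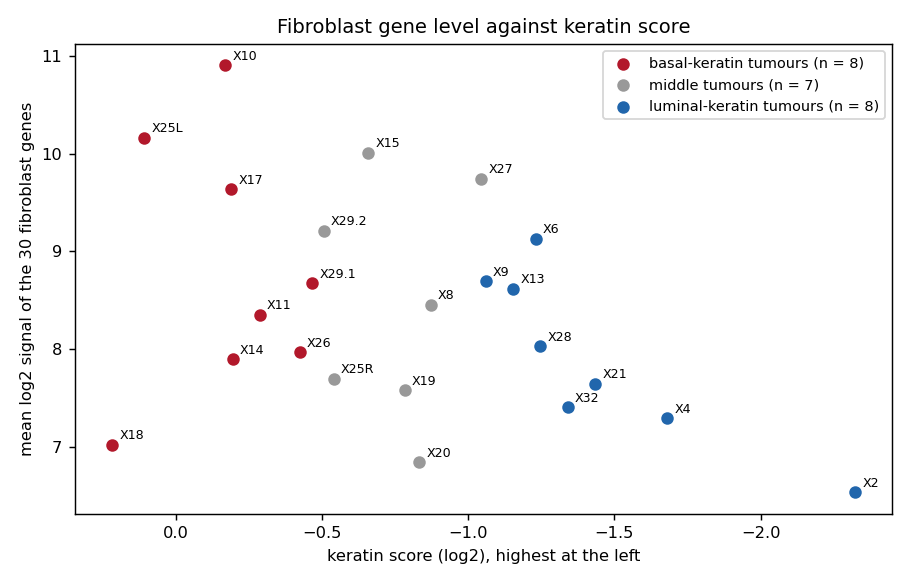
Mean log2 signal of the 30 fibroblast genes (vertical axis) against the keratin score (log2, horizontal axis, highest at the left) for 8 basal-keratin, 7 middle and 8 luminal-keratin tumours, each named by title. X10, X25L and X17 lie above all luminal-keratin tumours, whereas X18, with the highest score, is at 7.02.

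The fibroblast level was also put in the fit as a linear covariate. The median log2 difference was then 0.31 for basal epithelium with 16 of 17 members above 0, and -0.22 for the luminal surface with 23 of 25 members below 0. For the laminin list it was 0.16 with 12 of 17 above 0, and for contractile genes 0.12 with 13 of 18 above 0. Of the basal epithelium members, 2 had a p under 0.05 in that fit, against 4 without the covariate. No probe set was called in that fit either. The covariate does not bring the groups to equal fibroblast level, since X10, X25L and X17 lay above every luminal-keratin tumour. Whether the fibroblast level accounts for the other lists was therefore not tested.

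Other stromal and immune lists had medians nearer to 0. Among mesenchymal genes 11 of 13 were above 0, with a median of 0.31 and 0 called. Vim, the intermediate filament of mesenchymal cells, had a signal of 609 to 2886 with a median of 1513 in basal-keratin tumours, and 543 to 1739 with a median of 695 in luminal-keratin tumours (log2 difference 0.83, SE 0.31, p = 0.0158). S100a4, a calcium-binding protein of fibroblasts and leukocytes, differed by 1.16 (SE 0.50, p = 0.033). With the fibroblast covariate the median of the mesenchymal list was 0.12.

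Among macrophage and monocyte genes 12 of 15 were above 0, with a median of 0.25 and 0 called, and the median was 0.54 when X22L was ranked. At an unadjusted p under 0.05, 6 of the 15 (40%) were higher, against 3.09% of all genes. That count was not stable: at p under 0.05 there were 0 with 11 tumours a group, with the continuous score or with standardized keratins, and 1 with 6 tumours a group or with the fibroblast covariate. Without 1 tumour it was 2 (without X21) to 9 (without X6), and it was 3 without X25L or without X9, and 4 without X10, without X26 or without X2. Cd53, a leukocyte tetraspanin, had a signal of 167 to 397 with a median of 195 in basal-keratin tumours, and 113 to 209 with a median of 156 in luminal-keratin tumours (log2 difference 0.50, p = 0.0133). C1qc, a complement chain made by macrophages, had medians of 700 in basal-keratin and 509 in luminal-keratin tumours (log2 difference 0.43, p = 0.0189). All 8 basal-keratin tumours lay above the luminal-keratin median for both genes.

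The list of major histocompatibility class II and other antigen presentation genes had 11 of 14 members above 0 with a median of 0.22. Lymphocyte genes had 14 of 18 above 0 with a median of 0.07. For lymphocyte genes 9 of 18 were above 0 with the continuous score or standardized keratins and 10 of 18 with 11 tumours a group, and the median was 0.02 without X26, 0.04 without X9 and 0.12 without X17 or without X4. RT1-Ba and RT1-Da, class II antigen-presenting chains, differed by 0.53 (p = 0.0558) and 0.48 (p = 0.0183). Ptprc, the CD45 antigen of all leukocytes, differed by 0.55 (p = 0.0294). Its luminal-keratin values were tight, at 74.9 to 86.9, while basal-keratin tumours ran from 68.2 to 271. Of the mast cell and granulocyte genes 9 of 11 were above 0 with a median of 0.15, while with 11 tumours a group 4 of 11 were above 0 and the median was -0.0019. The largest difference was that of Cma1, a mast cell chymase, at 0.81 (95% interval -0.40 to 2.02, p = 0.174).

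Endothelial genes had 11 of 15 members above 0 and 4 below, with a median of 0.23, a lowest difference of -0.51 and 0 called. At an unadjusted p under 0.05, 2 of the 15 (13.3%) were higher, against 3.09% of all genes. These 2 were Kdr and Esam, and Esam was named after its values were seen. Kdr, the vascular endothelial growth factor receptor of vessels, had medians of 128 in basal-keratin and 86.5 in luminal-keratin tumours (log2 difference 0.59, p = 0.0251). Esam, an endothelial adhesion protein, differed by 0.37 (SE 0.11, p = 0.00365), with all 8 basal-keratin tumours above the luminal-keratin median of 246. With the fibroblast covariate the median of the endothelial list was 0.11. How far the share of stromal, immune and vessel cells bears on the keratin comparison was not tested.

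Adipocyte, skeletal muscle and nerve lists had medians of 0.11, 0.00 and 0.00, and the adipocyte median was 0.24 with 6 or 11 tumours a group. The summed signal of the adipocyte list was 1107 to 2948 in basal-keratin and 1286 to 3792 in luminal-keratin tumours, against 27041 to 65585 in normal glands, so both groups held little fat signal. Acta1, the skeletal muscle actin, differed by 0.55 (p = 0.129), and S100b, a glial and adipocyte protein, by 0.30 (p = 0.347). Of 17 lipogenesis and cholesterol genes, 13 were below 0 with a median of -0.09. Fasn, the fatty acid synthase, had a signal of 859 to 1327 in basal-keratin and 733 to 3344 in luminal-keratin tumours (log2 difference -0.55, p = 0.04). All 8 basal-keratin tumours lay below its luminal-keratin median of 1463. Thrsp, a regulator of lipogenesis, differed by -0.80 (95% interval -2.04 to 0.45, p = 0.195).

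Growth factor, Wnt and Notch lists had members of both signs in near balance. Of 29 growth factor genes 16 were above 0 and 12 below, with a median of 0.03, and of 25 Wnt and Notch genes 15 were above 0 and 10 below, with a median of 0.02. Met, the hepatocyte growth factor receptor of epithelia, had a signal of 58.3 to 180 with a median of 129 in basal-keratin tumours, and 87.1 to 330 with a median of 196 in luminal-keratin tumours (log2 difference -0.74, p = 0.0138). All 8 basal-keratin tumours lay below the luminal-keratin median of Met.

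Igfbp3 and Igfbp4, binding proteins of insulin-like growth factors made largely by stroma, each differed by 0.76 (p = 0.0726 and p = 0.0129). Tcf7, a transcription factor of Wnt signalling and of T cells, differed by 0.62 (p = 0.0242). Of 21 matrix protease and inhibitor genes 13 were above 0 and 6 below, with a median of 0.09. That median was 0.25 without X14, 0.05 without X18, 0.24 with 6 tumours a group, 0.20 with 16 of 21 above 0 with 11 tumours a group, 0.30 with 12 of 14 above 0 among brighter probe sets, and 0.00 with quantile normalization. Mmp3, stromelysin, had medians of 2033 in basal-keratin and 2193 in luminal-keratin tumours, against 111 in normal glands, and a difference of -0.23 (95% interval -1.17 to 0.71, p = 0.613). Ctsk, a collagen-degrading cathepsin, differed by 0.78 (95% interval -0.46 to 2.02, p = 0.203). Of 19 desmosome and cornified envelope genes 12 were below 0 and 7 above, with a median of -0.03, and Anxa8, an annexin of epithelia, had the largest difference at -0.90 (SE 0.47, p = 0.0719).

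Genes among the 10 with the smallest unadjusted p, chosen after their values were seen, were Gask1b, Rrp15, Spats2l, Fermt3, Hmcn2, Grip1, St3gal2, Serpinb1a and Mest. Their p ran from 0.000163 to 0.00084. Serpinb1a, an inhibitor of leukocyte proteases, had a signal of 408 to 1017 with a median of 772 in basal-keratin tumours, and 106 to 717 with a median of 241 in luminal-keratin tumours. Its log2 difference was 1.33 (SE 0.33, 95% interval 0.63 to 2.02), the middle tumours lay between the groups with a median of 536.

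Gask1b, the gene with the smallest p, had a signal of 512 to 890 in basal-keratin and 305 to 540 in luminal-keratin tumours (log2 difference 0.65, SE 0.14). Rrp15, which acts in ribosomal RNA processing, had a signal of 118 to 142 in basal-keratin and 125 to 199 in luminal-keratin tumours (log2 difference -0.43, SE 0.09). The overlap was narrow for Gask1b, whereas for Rrp15 it took in the basal-keratin median of 126. Mest, an imprinted gene of mesodermal and adipose tissue, had a signal of 84.3 to 453 in basal-keratin and 60.3 to 90.5 in luminal-keratin tumours (log2 difference 1.04, SE 0.26). Fermt3, an integrin activator of blood cells, differed by 0.84, and Hmcn2, a hemicentin of the extracellular matrix, by 0.83. The luminal-keratin median of Fermt3 was 48.6, near the floor, and 2 luminal-keratin tumours were at or under it.

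St3gal2, a sialyltransferase, differed by 0.95, and Spats2l by 0.69. Grip1, a scaffold protein, differed by -0.69 on the log2 scale, with medians of 48.2 in basal-keratin and 91.9 in luminal-keratin tumours. For Grip1, 3 basal-keratin tumours were at or under the floor.

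In 1 of the 15861 probe sets (0.0063%) the ranges of the groups did not overlap. It was a probe set of Haus1, a subunit of the augmin complex of the mitotic spindle, chosen for naming after its values were seen. Its signal was 81.6 to 96.3 in basal-keratin and 99.96 to 114.7 in luminal-keratin tumours, a log2 difference of -0.29 (SE 0.07, p = 0.000703). The second probe set of Haus1 had medians of 116 in basal-keratin and 128 in luminal-keratin tumours and a difference of -0.07 (p = 0.675), so the probe sets of this gene differed in how far they separated the groups.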

How the data were processed

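The authors deposited linear intensity values of 15923 probe sets for 35 arrays, 11 of normal rat mammary glands and 24 of tumours. The sources used here do not give the software or scaling. The median signal was 158 to 176 per array, and 0.648% of the values were exactly 1. For arrays, their number limits the precision. After 57 control probe sets were left out, values under the 10th percentile, a signal of 41.6, were raised to it and log2 was taken. Of the probe sets, 12783 carry 1 gene symbol in the platform annotation, 312 several and 2771 none, and Entrez identifiers of 12748 matched the RefSeq table without a change of symbol. Each of 10411 genes was read by the probe set that was brightest on average across the 35 arrays. Signals given as ranges and medians are the deposited ones, before the floor, and differences come from the floored log2 values.

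The fit of the 8 against 8 tumours used limma (version 3.58.1, under R 4.3.3; lmFit, then trended and robust eBayes) over 15861 probe sets, without those of the 5 score keratins, with Benjamini-Hochberg adjustment and calls under 0.05. Array measures were compared by exact two-sided permutation tests. Figures and summaries used Python 3.11.15. On simulated arrays of the 15861 probe sets, the fit recovered 8% of 1.25-fold, 42% of 1.5-fold, 86% of 2-fold and 100% of 4-fold changes (50 probe sets each) and called 0.0383% of the unchanged ones. Changes were put only into probe sets whose mean level was more than 2-fold above the floor. The recovered shares therefore do not cover dimmer ones. The simulated probe sets varied independently, and the real fit has 8 tumours a group.

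The members, the score and the 22 gene lists were chosen with earlier results of these data known. Named genes were the member of each list with the largest difference where none was called, and a panel (Krt17, Krt15, Krt7, Trp63, Acta2, Myh11, Egfr, Cdh3, Cdh1, Esr1, Pgr, Prlr, Gata3, Csn2, Wap, Vim, Mki67). The rule also named the largest changes among called genes, of which there were none. Other genes were chosen after their values were seen, and 1 of those with the smallest p is not reported here. Alternatives covered scaling, floor, dim probe sets, spread model, group size, the score, X22L, tumours sharing a title number, 3 covariates and each tumour left out. Genome positions are not given, since no build was named.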

Additional observations from a re-analysis of the deposited data

Results flagged for a closer look

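In each group, a tumour was looked at again where its log2 signal of a named gene stood apart from the other 7, by a gap of more than 0.526 of the group's whole range. Of 142 such group and gene pairs, 11 were marked. Chance marks about 1 in 20 where values are normally distributed. That rate does not hold for pairs with several tumours at the floor, such as Wap, Csn2 and Cma1. Of the 11, X32 held 4 and X10 and X6 held 2 each.

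Among basal-keratin tumours, Krt15 was lowest in X25L at 880, with the others at 1623 to 2173 (gap 0.677 of the range). Csn2 was highest in X10 at 1907, with the others at most 47.6 (gap 0.965), and Wap was also highest in X10, at 377 with the others at the floor (gap 1). Both milk genes thus stood out in the same tumour.

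Among luminal-keratin tumours, X32 had the lowest Anxa8 at 122, with the others at 660 to 1956 (gap 0.609), and the lowest Rrp15 at 125, with the others at 162 to 199 (gap 0.561). X32 also had the highest Krt7 at 1907, with the others at 248 to 645 (gap 0.531), and the highest Cma1 at 359, with the others at the floor (gap 1). Wap was highest in X6 at 205, with the others at most 79.7 (gap 0.592), and Fermt3 was highest in X6 at 85.0, with the others at most 55.4 (gap 0.599). Ube2c was lowest in X4 at 85.9, with the others at 237 to 461 (gap 0.604). Cldn3 was highest in X2 at 3191, with the others at 1465 to 2066 (gap 0.558), and X2 was the tumour with the lowest keratin score.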

How the results depend on the processing

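The comparison was repeated under 30 other settings, and the finding of 0 called probe sets held in 28 of them. In 2 settings, the floor at the 20th percentile and eBayes without trend and robust estimation, 1 probe set was called lower, that of Haus1, at the same log2 difference of -0.29 (limma adjusted p = 0.0232 and 0.0417). Both settings change only the estimate of the spread for this probe set. Without each of the 16 tumours in turn, 0 were called higher and 0 lower, with 519 probe sets (without X2) to 898 (without X32) at an unadjusted p under 0.05 and a lowest adjusted p of 0.0594. Over the other settings that count was 381 (brighter probe sets alone, 7928 tested) to 1147 (the score as a continuous term over 23 tumours, 7.23%). Ranking only the first tumour of each title number gave the same 16 tumours, so that setting, counted among the 28, only repeated the main fit. Of the gene values by setting, 1920 kept their sign and 42 changed it, all of them in genes with a p above 0.05. With quantile normalization Prlr was -0.041 and Wap 0.0064, with the floor at the 20th percentile Wap was 0.082, and with 6 tumours a group Prlr was -0.033. With 11 tumours a group Thrsp was 0.0081, Cdh3 -0.030, Esr1 0.060, Pgr 0.023 and Mmp3 0.15. With the continuous score Esr1 was 0.041 per unit of score. With keratins standardized before scoring Esr1 was 0.014, Pgr 0.046, Prlr -0.077 and Mmp3 0.13, and with X22L ranked Prlr was -0.58. With the fibroblast list as covariate Ctsk was -0.26, Prlr -0.088, Gata3 0.074, Col1a1 -0.15 and Itga6 0.026, and with the Gapdh ratio as covariate Wap was 0.024. Leaving out 1 tumour gave -0.41 to 0.26 for Wap, -0.13 to 0.035 for Gata3, -0.20 to 0.046 for Esr1, -0.057 to 0.19 for Prlr and -0.45 to 0.0048 for Mmp3. The cause of these changes was not tested. No paired analysis was possible because the labels pair no tumours and the groups share no replicate number. Signals near the floor of 41.6, as for Wap, Csn2, Ehf, Cma1, Acta1, Esr1, Grip1 and Fermt3, carry little information on size. On simulated arrays, where changes were put only into probe sets away from the floor, the fit recovered 42% of 1.5-fold changes.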
